A study of Mus musculus with 22 samples.

Results

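Spinal cords of mice carrying 1 copy of the Yars E196K allele (genotype E196K/+, called HET below) were compared with those of wild type mice (WT) by RNA sequencing. The 12 libraries were chosen by genotype label alone, 6 HET and 6 WT, out of 22 libraries in the series. The other 10 libraries came from E196K/E196K mice (HOM). They are used only where a HOM value is set beside a HET value and in an alternative fit of all 22 libraries. Every mouse was of mixed B6N;B6J strain and 7 months old, and the tissue was whole spinal cord. The labels name no promoter or Cre driver that would limit the allele to a cell type. The labels do not say that the libraries of a group came from separate animals, so each p-value reflects how much these particular libraries vary. They also give neither the sex of the mice nor the meaning of the number that opens each title.

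Yars encodes the cytosolic tyrosyl-tRNA synthetase, the enzyme that charges tRNA-Tyr with tyrosine for protein synthesis. Dominant variants of the human gene, E196K among them, cause dominant intermediate Charcot-Marie-Tooth neuropathy, a disease of motor and sensory axons in which a single altered copy is enough. The HET genotype therefore matches the human allele dose, and the HOM genotype does not. When uncharged tRNA or stalled ribosomes activate the kinase GCN2, phosphorylated eIF2 lowers general translation and favours translation of ATF4, a transcription factor that raises genes of amino acid synthesis, amino acid transport and tRNA charging. This programme is the integrated stress response.

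A codon that fits the allele's name is shown because the genotype labels refer to it. In the GENCODE M21 annotation (GRCm38), Yars lies on the plus strand at chr4:129189760-129219607, and the residue in the allele's name was counted from the second in-frame ATG, which is codon 37 of the 564 codons of transcript ENSMUST00000106054.2. Counted from the annotated start, that position holds the codon TTG, which does not encode glutamate, so the second ATG was chosen because it gives a glutamate there, and the numbering was not checked in another way. Counted so, the wild type residue is encoded by GAG, a glutamate codon, at chr4:129206204-129206206, near the end of exon 5 of 13. The 45 coding bases around it, with the codon in capitals and the bases to its right lying partly in exon 6, read:
Yars: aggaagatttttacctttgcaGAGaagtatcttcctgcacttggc
The files hold gene totals and not reads, so the allele itself was not seen in any library.

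Total counts per library ran from 24448513 (HET 6) to 42805964 (WT 2). Of 66 pairs of libraries, none held identical values, and the chi-square of their counts per degree of freedom ran from 4.227 to 108.35, so all were kept as separate samples. Markers of the tissue were present in every library, with mean levels in WT and HET of 24.1 and 24.3 CPM (read counts scaled to a common library total by TMM) for Chat of motor neurons, 567 and 560 for Slc6a5 of glycinergic interneurons, 11600 and 12000 for Mbp of oligodendrocytes and 1580 and 1690 for Gfap of astrocytes. The groups were not balanced for 2 properties of the libraries. Xist, the RNA that coats an inactive X chromosome, was at 419 to 621 CPM in 5 WT libraries and at 0.14 in WT 6, while it was at 412 and 555 CPM in HET 2 and HET 4 and at 0.0696 to 0.363 in the other 4 HET libraries. Ddx3y, a Y-linked gene, was at 0 CPM in each library with Xist at 412 CPM or more. It was at 77.3 CPM in WT 6 and at 71.4 to 91.1 in the other 4 HET libraries. By these 2 genes the libraries of high Xist read as female and the others as male, so sex was not balanced between the groups. The title prefix was 40412 for 3 WT and 5 HET libraries, 40411 for 2 WT and 1 HET, and 39992 for WT 1 alone. Values within the libraries of high Xist, or within prefix 40412, are given below beside many of the genes and lists, as differences of mean log2(CPM + 0.5), a scale that understates differences of low genes.

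No gene differed between HET and WT cords after adjustment. Of 16589 genes tested with edgeR's quasi-likelihood test, 0 (0%) had a Benjamini-Hochberg adjusted p below 0.05, and the smallest adjusted p rounded to 1.0. DESeq2 and limma voom also called 0 genes. At an unadjusted p below 0.05, edgeR listed 726 genes where 829 are due if nothing differs, DESeq2 listed 660 and voom 745. Of the 726, 318 were higher in HET (1.92% of genes tested) and 408 lower (2.46%). Over all genes, 8036 estimates were above 0 and 8553 below, the median log2 fold change was -0.002, and the middle 90% of estimates lay between -0.218 and 0.153. Limma was also run on log2(TPM + 1), where TPM is the authors' length-scaled level, without TMM scaling. The median moved to 0.043, and the genes at an unadjusted p below 0.05 split into 826 higher and 140 lower. The direction of small differences thus depended on the fit. The change of scale and the lack of TMM scaling were not told apart.

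The size of difference that these libraries leave room for was read from the 95% confidence interval of each gene's fold change. For 14854 genes (89.5%) the whole interval lay within 1.5-fold of no difference, and for 98% within 2-fold. These intervals are per gene and are not adjusted for the number of genes. Precision followed the level of expression. Among 2169 genes at 100 CPM or more the median margin of the interval on each side of the estimate was 0.08 on the log2 scale, and 99.5% of intervals lay within 1.5-fold. Among 8136 genes at 10 to 100 CPM the corresponding values were 0.11 and 99.2%, and among 4409 genes at 1 to 10 CPM they were 0.23 and 91.8%. Among 1875 genes under 1 CPM the margin was 0.5 and 30.7% lay within 1.5-fold, so fewer of these transcripts were bounded that closely. Of 14714 genes with a mean of at least 1 CPM, 37 estimates were 1.5-fold or more and 7 were 2-fold or more. Genes of the X and Y chromosomes were not left out of these counts, although sex was not balanced between the groups. The 7 include Lars2 (-1.36), whose uneven values are given below.

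**Figure D1:**
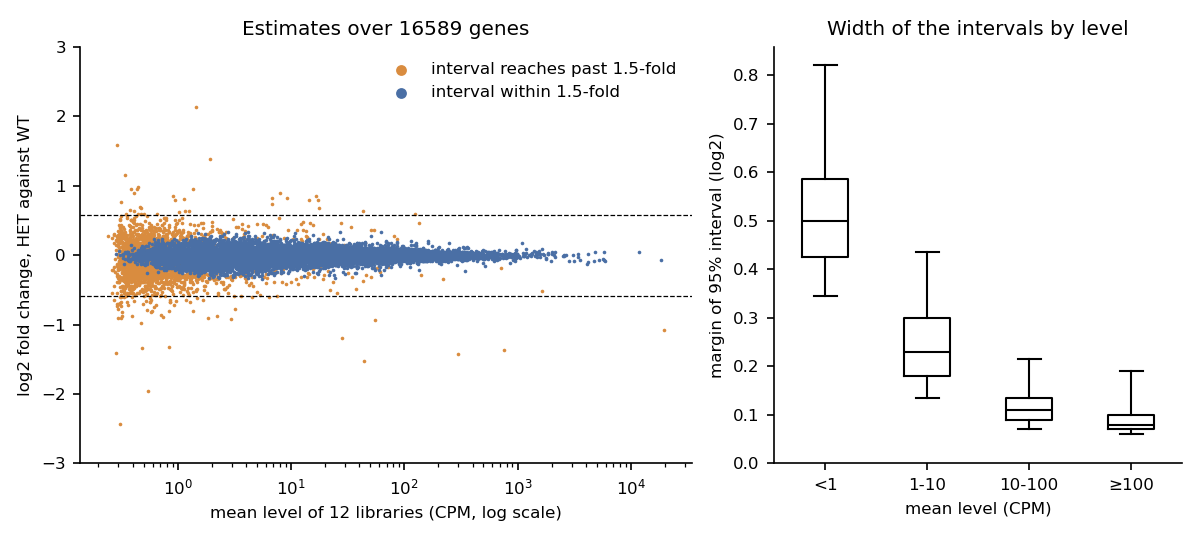
Left, log2 fold change of HET over WT for each of the 16589 tested genes against mean CPM (log axis), coloured by whether its 95% interval lay within 1.5-fold, with dashed lines at 1.5-fold. Right, margin of the interval on each side by level of expression (box, quartiles; whiskers, 5th to 95th percentile); the median narrows from 0.5 under 1 CPM to 0.08 at 100 CPM and over.

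Yars mRNA itself differed little between the groups. WT libraries held 109 (lowest), 114 (median) and 118 (highest) CPM and HET libraries 111, 113 and 121. The groups overlapped over almost their whole range, and the log2 fold change was 0.01 (95% interval -0.06 to 0.08). As a ratio of HET to WT in total Yars mRNA, the interval ran from 0.962 to 1.05. Genes near an edited allele can carry the sequence of the founding strain, so the 163 tested genes within 5 Mb of Yars were listed separately. Of these, 86 were higher in HET and 77 lower, with a median log2 fold change of 0.01. Unadjusted p was below 0.05 for 3 higher and 2 lower members, and 147 intervals lay within 1.5-fold. Nnt, a mitochondrial transhydrogenase whose deletion marks the B6J substrain, was at -0.04 (-0.14 to 0.06), with HET 17.4 to 19.7 CPM and WT 17.8 to 20.5. The other 3 listed genes that differ between the substrains were at 0.03 (Wdfy1), -0.07 (Entpd4) and -0.02 (Ide).

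Genes of tRNA charging showed no call and had narrow intervals. All 23 tested cytosolic tRNA synthetases had intervals between -0.15 and 0.15 on the log2 scale, none reached an unadjusted p below 0.05, 15 were higher in HET, and their median log2 fold change was 0.01. Aars, the alanyl synthetase, was at 216, 227 and 247 CPM in WT (lowest, median, highest) and at 225, 235 and 243 in HET, a log2 fold change of 0.03 (-0.04 to 0.11). Cars, the cysteinyl enzyme, was at 37.8, 38.6 and 40.1 CPM in WT and 37.7, 40.3 and 42.3 in HET (0.05, -0.02 to 0.13). Wars, the tryptophanyl enzyme, was at 0.01 (-0.05 to 0.08). In each of these genes the groups overlapped.

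Among 17 mitochondrial tRNA synthetases, 10 were higher in HET, the median was 0.01 and 16 intervals lay within 1.5-fold. The exception was Lars2, the mitochondrial leucyl enzyme, at 188, 666 and 2680 CPM in WT and 271, 333 and 731 in HET, a log2 fold change of -1.36 (-2.80 to 0.07). The WT range was the wider and contained all HET values. Gm42418, a transcript that overlaps ribosomal RNA sequence, was also uneven, at 6300 to 57200 CPM in WT and 7940 to 20500 in HET, and the part of this in the Lars2 value was not tested.

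Of 35 tested ATF4 and integrated stress response targets, 23 were higher in HET, with a median log2 fold change of 0.03 beside -0.002 for all genes, and 31 intervals lay within 1.5-fold. Unadjusted p was below 0.05 for 3 higher members and 1 lower. Atf4, the transcription factor, was at 74.7, 76.6 and 82.0 CPM in WT and at 79.3, 85.7 and 88.8 in HET. The groups overlapped, with HET 1 at 79.3 inside the WT range and the other 5 HET libraries above it. Its log2 fold change was 0.14 (0.07 to 0.21), or 1.1-fold, with an unadjusted p of 0.00107 from edgeR that failed the adjustment, and it was 0.15 within the libraries of high Xist and 0.13 within prefix 40412. The member below 0.05 in the other direction was Nupr1, a stress-induced transcriptional regulator, at 1.09, 1.63 and 1.94 CPM in WT and 0.877, 1.12 and 1.36 in HET (-0.53, -0.85 to -0.20), with -0.28 within the libraries of high Xist. Chac1, which degrades glutathione, was at 6.23 to 7.69 CPM in WT and 5.82 to 7.32 in HET (-0.06, -0.21 to 0.09). Atf3 was at 0.03 (-0.34 to 0.40) and Sesn2, a nutrient sensor, at 0.03 (-0.07 to 0.13).

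The kinases, phosphatase subunits and exchange factors that act on eIF2 were measured tightly as well. Of 14 tested, 5 were higher in HET, the median was -0.02 and 13 intervals lay within 1.5-fold. Eif2ak1, the haem-regulated kinase, was at -0.01 (-0.07 to 0.05), and Eif2b5, a subunit of the exchange factor, at 0.07 (-0.02 to 0.15). Eif2s3x, the X-linked gene for the gamma subunit of eIF2, was the member outside 1.5-fold, at 175, 260 and 273 CPM in WT and 163, 171 and 255 in HET (-0.34, -0.68 to -0.00, unadjusted p 0.0479). Its libraries fell into a high and a low set that followed Xist: the difference was -0.05 within the libraries of high Xist and -0.07 within those of low Xist.

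ATF4 binds with C/EBP proteins at composite elements, and 3 windows that hold the letters TGATGNAA (either strand) are shown for genes whose HET values are given here. The match is in capitals with 20 bases on each side, printed on the strand of the gene. Sequences are from RefSeq, build GRCm38.p6, from the 250 bases before each start site.
Fgf21: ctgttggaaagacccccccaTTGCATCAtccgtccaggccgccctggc
Chac1: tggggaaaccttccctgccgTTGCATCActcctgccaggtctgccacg
Atf3: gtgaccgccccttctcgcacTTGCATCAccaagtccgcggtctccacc
These lie at chr7:45615602-45615649 (minus strand), chr2:119351029-119351076 (plus) and chr1:191183416-191183463 (minus). All 3 matches read TTGCATCA on the gene's strand, the reverse complement of a TGATGNAA. The letters occurred in promoters of 9 of the 33 response genes present in the RefSeq table (20.9% of their 43 promoters), and in 3.45% of all 32851 promoters. A match describes the letters and not a bound site.

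HET values were then set beside HOM values for the 16 genes called in HOM against WT in a fit of all 22 libraries, which are 0.0943% of 16974 genes (12 of the 16 passed the filter on low counts in the 12 HET and WT libraries). These genes were chosen for their HOM difference, and both comparisons use the same WT libraries, so the HOM values are given as a description. Of the 12 tested, 8 were higher in HET, 1 had an unadjusted p below 0.05, the median was 0.02 and 11 intervals lay within 1.5-fold. For 12 of 12, the HOM estimate lay outside the HET interval, and in the direct test of HOM against HET 9 of all 16 passed an adjusted p of 0.05, where 18 of 16974 genes (0.106%) did. The 7 that did not pass were Atf4, Cars, Wars, Aldh18a1, Acsl5, Sesn2 and Mrvi1. As the genes were chosen for their HOM level, nothing is read from these counts.

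Cdsn, the gene for corneodesmosin, had mean levels of 0.407 CPM in WT, 0.368 in HET and 2.14 in HOM (22-library fit). Its log2 fold change was -0.17 (-0.71 to 0.36) in HET and 2.39 (2.02 to 2.76) in HOM. Stbd1, which tethers glycogen to membranes, was at 1.06 to 1.46 CPM in WT and 1.22 to 1.61 in HET (12-library fit), beside a HOM mean of 4.21, with 0.22 (-0.04 to 0.48) in HET and 1.75 in HOM. Slc7a1, the transporter of arginine and lysine, was at 71.2, 73.7 and 94.1 CPM, with 0.04 in HET and 0.40 in HOM. In each of these genes the HET and WT ranges overlapped. The HOM mean lay above both ranges, but the genes had been chosen for a HOM difference from these WT libraries.

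Atf4 had a HET mean between the others, with 77.3, 85.5 and 90.6 CPM in WT, HET and HOM. Its log2 fold change was 0.14 in HET and 0.23 in HOM, and the difference between HOM and HET was 0.08 (0.01 to 0.16), which did not pass the adjusted p of 0.05 in edgeR. For Chac1 the pair of values was -0.06 and 0.55. Among genes that also did not pass between HOM and HET, the pair was, for Aldh18a1 of proline synthesis 0.04 and 0.25, for Sesn2 0.03 and 0.28, for Cars 0.05 and 0.19, and for Wars 0.01 and 0.17. Mrvi1, an inositol trisphosphate receptor regulator, was at -0.05 in HET and -0.45 in HOM.

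Of the genes too low to test, Fgf21, a hormone of the fibroblast growth factor family that is secreted in metabolic stress, had 4, 2, 2, 0, 0 and 4 counts in HET 1 to HET 6 and 0 in all 6 WT libraries. The lower 95% limit of the HET to WT ratio, from counting error, was 2.97, the ratio of the HET counts to a floor of 3 counts over the WT group was 4.27 after scaling for depth, and a two-sided exact permutation test over libraries gave p = 0.0606. HOM libraries held 1108 counts of the gene, a ratio of 226 to the same floor. Adm2, a calcitonin family peptide, had 3 counts in HET and 1 in WT, a ratio of 3.2 (95% interval 0.257 to 168; exact permutation p = 0.424), beside 118 in HOM. B4galnt2, a glycosyltransferase, had 9 and 9 counts, and Gdf15, a stress hormone, 9 and 11, beside 299 and 121 in HOM. These intervals cover counting error only.

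**Figure D2:**
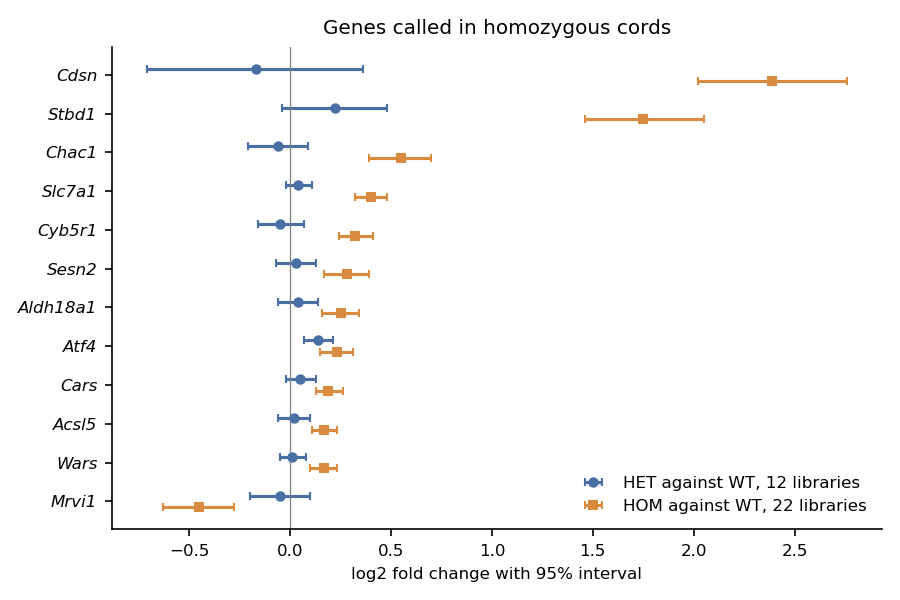
Log2 fold change over WT with its 95% interval for the 12 tested genes called in HOM against WT; circles, HET (12-library fit); squares, HOM (22-library fit). HET values lie near 0 for Cdsn (-0.17) and Slc7a1 (0.04), where HOM values are 2.39 and 0.40, and the Atf4 values (0.14 and 0.23) lie closest together.

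The list that stood farthest from the median of all genes was that of immediate early genes, which neurons transcribe within minutes of activity or another stimulus. Of 22 tested, 20 were higher in HET and 8 had an unadjusted p below 0.05, all 8 higher, where 1.92% of all genes were higher at that p. Their median log2 fold change was 0.35, and 10 of the 22 intervals lay within 1.5-fold. No member was called, and the higher values were not shared by all HET libraries. The list's mean log2 deviation from WT was 0.68 in HET 3 and 0.54 in HET 6, while it was -0.07 in HET 4, 0.00 in HET 1, 0.16 in HET 2 and 0.23 in HET 5, and WT libraries ran from -0.10 to 0.13. Summed over the list, WT held 208 to 236 CPM and HET 219 to 380.

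Fos, a component of the AP-1 factor, was at 10.8, 12.1 and 15.5 CPM in WT and at 13.4, 19.2 and 35.7 in HET. The groups overlapped at their edges and the HET range was the wider. Its log2 fold change was 0.79 (0.27 to 1.30, unadjusted p 0.00648 from edgeR). The difference was 0.36 within the libraries of high Xist and 0.69 within prefix 40412. Within those of low Xist, where WT 6 is the only WT library, it was 0.89. Arc, which acts at synapses, was at 24.3, 25.8 and 30 CPM in WT and 28.1, 30.9 and 34.5 in HET (0.23, 0.09 to 0.37). Its difference was 0.08 within the libraries of high Xist, 0.38 within those of low Xist and 0.22 within prefix 40412. Ier2 was at 2.77, 3.30 and 3.58 CPM and 3.29, 4.17 and 5.17 (0.38, 0.15 to 0.61). For Ier2 the difference was 0.19 within the libraries of high Xist, 0.57 within those of low Xist and 0.42 within prefix 40412. Fosb, named by the same rule, was at 0.45 (-0.24 to 1.15), and its direction turned to -0.14 without HET 3 and HET 6 and to -0.05 in a fit of the 7 libraries of high Xist.

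A few further members were picked after their values were seen. Egr1, a zinc finger factor, was at 27.9 to 39.5 CPM in WT and 33.4 to 80.2 in HET (0.64, 0.18 to 1.09), Junb at 9.11 to 11.2 and 10.4 to 20.8 (0.45, 0.14 to 0.76), Nr4a1 at 8.66 to 12.4 and 10.1 to 23.9 (0.48, 0.06 to 0.91), and Dusp1, a phosphatase of MAP kinases, at 9.95 to 13.1 and 11.8 to 21.1 (0.35, 0.09 to 0.62). All 4 had overlapping groups. Within the libraries of high Xist the differences were 0.39 for Egr1, 0.21 for Junb, 0.12 for Nr4a1 and 0.11 for Dusp1. In the same order they were 0.44, 0.53, 0.49 and 0.48 within the libraries of low Xist. Within prefix 40412 they were 0.55, 0.52, 0.41 and 0.47. Jun, the partner of Fos, was at 45.2 to 51.1 CPM in WT and 41.5 to 52.1 in HET (-0.00, -0.12 to 0.11).

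Promoters of Fos, Junb and Dusp1 are shown as examples, picked by hand among list genes whose promoters hold a match. Capitals mark the core of the cAMP response element, TGACG, searched on both strands in the 250 bases before each start site (RefSeq, GRCm38.p6). Flanks of 20 bases are included on each side.
Fos: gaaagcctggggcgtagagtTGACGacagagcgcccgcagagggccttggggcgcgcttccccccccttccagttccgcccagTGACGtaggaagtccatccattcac
Junb: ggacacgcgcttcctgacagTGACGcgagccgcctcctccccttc
Dusp1: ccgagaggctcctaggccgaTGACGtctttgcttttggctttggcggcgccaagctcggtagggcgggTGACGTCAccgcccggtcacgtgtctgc
They lie at chr12:85473741-85473848 (plus strand), chr8:84978830-84978874 (minus) and chr17:26508588-26508683 (minus). The second match in Dusp1 is the full palindrome TGACGTCA, in which the core matches on both strands and overlaps itself. The core occurred for 16 of the 19 list genes in the RefSeq table (76.0% of their 25 promoters) and in 17.8% of all 32851 promoters. The full element occurred for 3 of the 19 genes (12% of promoters) beside 1.55% of all. The serum response element (CArG box) occurred for 2 of the 19 genes, Dusp5 and Egr2 (10.5%), beside 1.62% of all genes. Counted by promoter, where a gene can have several, it was 20% of the list's promoters beside 1.47% of all. No match was read as a site in use.

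The immediate early gene list moved with single libraries, with the title prefix and with Xist, and these values are given beside it. Its median was 0.20 without HET 3, 0.27 without HET 6 and 0.12 without both (14 of 22 higher). It was 0.21 with the prefix as a covariate, 0.28 in prefix 40412 alone and 0.15 with Xist level as a covariate, where 17 of 22 were higher and 3 had an unadjusted p below 0.05. In the 7 libraries of high Xist (5 WT, 2 HET) it was 0.10, with 14 of 22 higher. That set leaves out HET 3 and HET 6, whose Xist is low. The part of each property in the list's value was not tested.

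**Figure D3:**
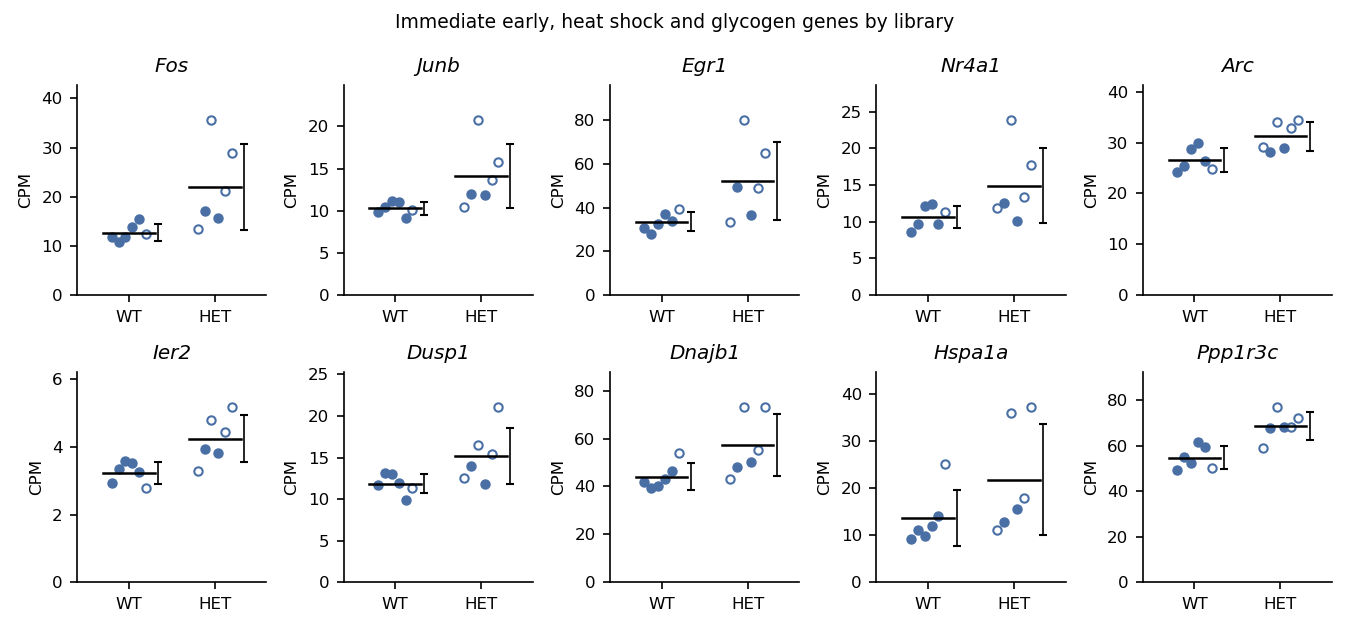
CPM of 10 stimulus-responsive genes in each WT and HET library; filled points, Xist above 100 CPM; open points, Xist below; line and bar, mean ± SD. HET points reach 35.7 for Fos and 73.2 for Dnajb1, while for Arc they run from 28.1 to 34.5 beside 24.3 to 30 in WT.

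Heat shock proteins, chaperones of which some are transcribed within minutes of proteotoxic stress, gave a smaller value. The list is mostly of cytosolic proteins but also holds Hspd1 and Hspe1, which act in mitochondria. Of 18 tested, 17 were higher in HET, the median was 0.04, 15 intervals lay within 1.5-fold and 2 members had an unadjusted p below 0.05. Dnajb1, a co-chaperone, was at 39.3, 42.6 and 54.1 CPM in WT and 43.2, 52.6 and 73.2 in HET (0.37, 0.07 to 0.67), with 0.22 within the libraries of high Xist. Hspa1a, an inducible HSP70 gene, was at 9.18, 11.5 and 25.2 CPM and 11.1, 16.8 and 37.3 (0.68, -0.17 to 1.53), with the highest WT value in WT 6. Hspa1b, its near-identical copy, was at 0.80 (-0.69 to 2.29), and reads of the pair may have been split between them. The direction of Hspa1b turned to -0.07 with Xist level as a covariate and to -0.31 without HET 3 and HET 6. Within the libraries of low Xist, where WT 6 is the only WT library, Hspa1a was at -0.14 and Hspa1b at -0.62. With the prefix as a covariate 11 of 18 were higher and the median was 0.01, and 11 of 18 were higher without HET 3 and HET 6.

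Endoplasmic reticulum stress genes were close to WT, with 13 of 20 higher, a median of 0.02, no unadjusted p below 0.05 and 20 of 20 intervals within 1.5-fold. Their direction depended on the fit. With Xist level as a covariate 1 of 20 was higher (median -0.04), and without WT 2 it was 3 of 20 (-0.02). It was 4 of 20 with the prefix as a covariate (-0.04) or in prefix 40412 alone (-0.07). On the TPM scale 20 of 20 were higher (0.08), where the median of all genes was 0.043. Hspa5, the chaperone BiP, was at 220 to 361 CPM in WT and 230 to 305 in HET (0.05, -0.21 to 0.31). Glucocorticoid-responsive genes, which report stress hormone exposure, had 8 of 18 higher, a median of -0.01 and 14 intervals within 1.5-fold. Fkbp5, a co-chaperone of the glucocorticoid receptor, was at 25.6, 26.7 and 39.5 CPM in WT and 27.3, 29.5 and 31.5 in HET (0.02, -0.18 to 0.21). Tsc22d3, the leucine zipper GILZ, was at -0.05 (-0.35 to 0.24). Both had their highest value in WT 6.

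The gene with the smallest p of the whole table was Ppp1r3c, which targets protein phosphatase 1 to glycogen and promotes glycogen synthesis. It was at 49.4, 53.9 and 61.7 CPM in WT and at 58.9, 68.3 and 77.2 in HET. The groups overlapped only between 58.9 and 61.7. Its log2 fold change was 0.33 (0.19 to 0.46), with an unadjusted p of 0.000138 from edgeR, and DESeq2's adjusted p of 0.0609 was the smallest of any fit. The difference was 0.29 within the libraries of high Xist, 0.44 within those of low Xist and 0.31 within prefix 40412. Over glycogen metabolism as a whole, 9 of 22 tested genes were higher, the median was -0.01, and 22 intervals lay within 1.5-fold. Ppp1r3d, another targeting subunit, was at 0.12 (-0.07 to 0.31) and Phkg1, a phosphorylase kinase subunit, at -0.08 (-0.16 to 0.01).

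Genes of cholesterol synthesis were mostly higher in HET by small amounts. Of 23 tested, 18 were higher, 4 of these at an unadjusted p below 0.05, the median was 0.06, and the 23 intervals lay between -0.26 and 0.32. Cyp51, the lanosterol demethylase, was at 112, 119 and 129 CPM in WT and 123, 132 and 146 in HET (0.14, 0.05 to 0.23). Mvd, mevalonate decarboxylase, was at 0.18 (0.05 to 0.30), and Hmgcs1, which makes HMG-CoA, at 0.02 (-0.12 to 0.17). The list's median was 0.02 in the 7 libraries of high Xist. On the TPM scale it was 0.10, beside 0.043 for all genes. Among 18 genes of ketone body and fatty acid oxidation 5 were higher and the median was -0.02. Aacs, which activates acetoacetate for lipid synthesis, was its member at an unadjusted p below 0.05, at 32.9, 36.6 and 41.8 CPM in WT and 40.3, 41.5 and 45.2 in HET (0.18, 0.07 to 0.28).

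**Figure D4:**
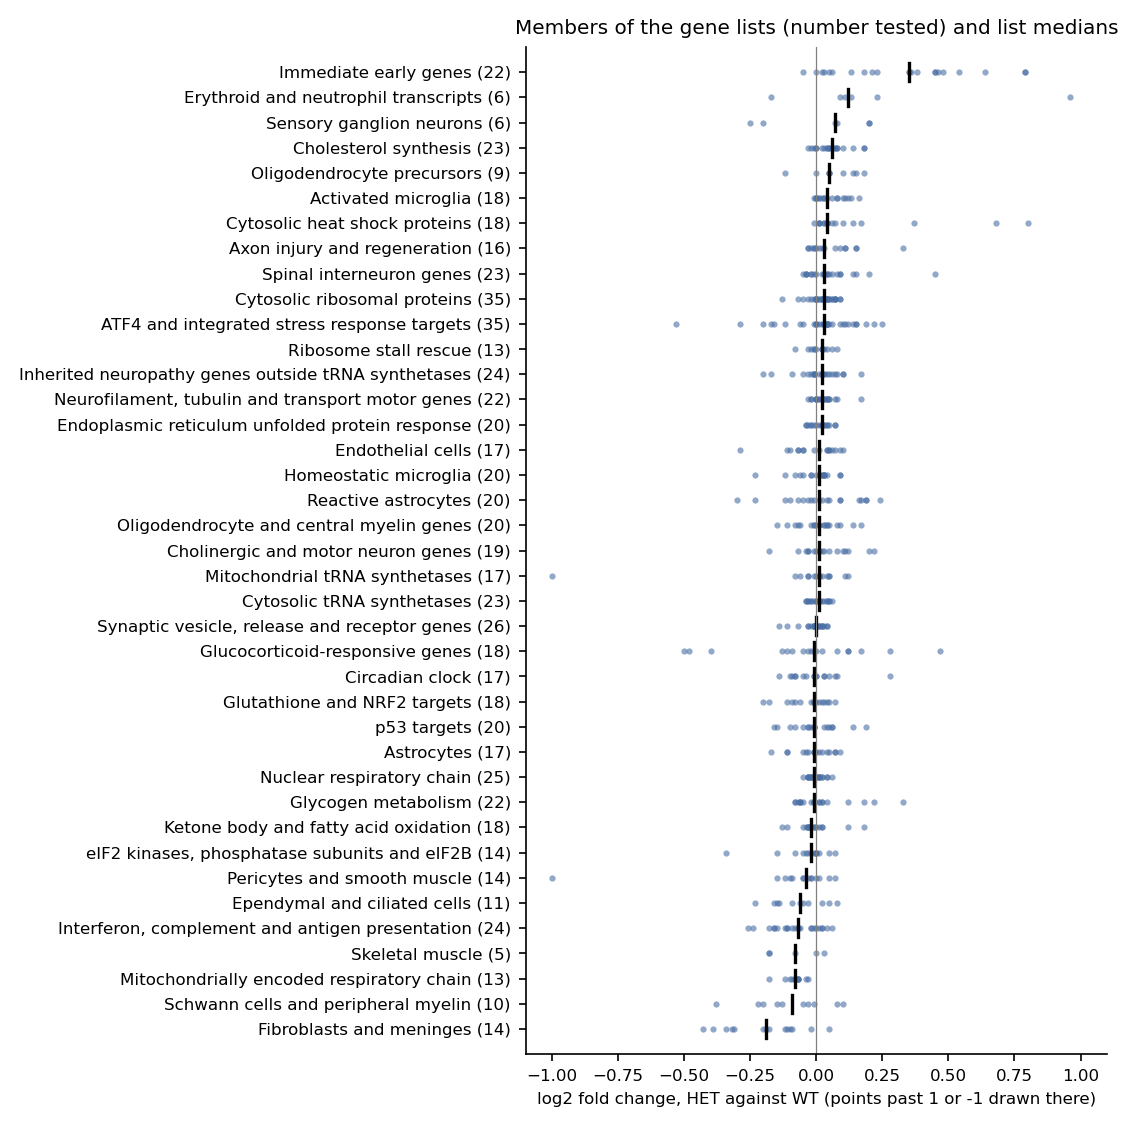
Log2 fold change of HET over WT for the tested members of 39 gene lists (points, genes; black bars, list medians; Lars2 and Carmn, beyond -1, are drawn at -1). Most medians lie within 0.1 of 0, with immediate early genes at 0.35 and fibroblast and meningeal genes at -0.19.

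Motor neurons are the cells of the cord whose axons fail in the human disease. Of 19 cholinergic and motor neuron genes, 12 were higher in HET, the median was 0.01, none had an unadjusted p below 0.05, and 19 of 19 intervals lay within 1.5-fold. In the 7 libraries of high Xist 8 of 19 were higher and the median was -0.00. Chat, which makes acetylcholine, was at 21.7, 23.3 and 29.3 CPM in WT and 22.3, 24.1 and 26.5 in HET (0.01, -0.13 to 0.15). Slc5a7, the choline transporter, was at 76.3 to 107 CPM in WT and 73.0 to 107 in HET (-0.00, -0.24 to 0.23). Esrrg, a marker of gamma motor neurons, was at -0.07 (-0.18 to 0.04), and Isl2 at 0.22 (-0.11 to 0.55). In whole cord, fewer cells of a type and less RNA per cell cannot be told apart.

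Spinal interneuron genes had 16 of 23 higher, a median of 0.03 and 22 intervals within 1.5-fold. Gad1, the GABA-synthesizing enzyme, was at 181, 189 and 205 CPM in WT and 185, 189 and 195 in HET (-0.01, -0.08 to 0.06). The 2 members at an unadjusted p below 0.05 were peptide genes of the dorsal horn. Grp, gastrin-releasing peptide, was at 3.81, 4.69 and 6.51 CPM in WT and 4.82, 6.89 and 7.90 in HET (0.45, 0.15 to 0.75), and Penk, proenkephalin, at 99.4, 105 and 125 and 98.8, 131 and 138 (0.20, 0.02 to 0.38). Within the libraries of high Xist these differences were 0.15 and 0.00. The highest WT value of both was in WT 6, which has low Xist.

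Axonal and synaptic genes also lay close to WT. Of 22 neurofilament, tubulin and transport motor genes 16 were higher in HET, the median was 0.02 and the 22 intervals lay between -0.16 and 0.37. Nefl, the light neurofilament, was at 1720, 1820 and 2030 CPM in WT and 1800, 1870 and 1930 in HET (0.02, -0.06 to 0.10), and Nefm at 0.05 (-0.05 to 0.15). Of 26 synaptic genes 11 were higher, none had an unadjusted p below 0.05, and 26 of 26 intervals lay within 1.5-fold, with Syn1 at 0.03 (-0.05 to 0.12). On the TPM scale 23 of the 26 were higher, with a median of 0.05 beside 0.043 for all genes.

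Axon injury and regeneration genes, which motor neurons express after nerve damage, had 10 of 16 higher, 3 of these at an unadjusted p below 0.05, a median of 0.03 and 16 intervals within 1.5-fold. Sox11, a regeneration-associated factor, was at 2.05, 2.45 and 2.91 CPM in WT and 2.71, 2.97 and 3.62 in HET (0.33, 0.11 to 0.55), with 0.19 within the libraries of high Xist. Atf3, the widely used injury marker, was at 0.911 to 1.53 CPM in WT and 0.970 to 1.61 in HET. Ecel1 was at 0.15 (0.04 to 0.26) and at 0.07 within the libraries of high Xist, and the other of the 3 was Csf1, which is also in the activated microglia list. Of 24 other inherited neuropathy genes 14 were higher, the median was 0.02 and 23 intervals lay within 1.5-fold. Among them Pmp22, a myelin protein, was at 0.08 (-0.02 to 0.18), Gjb1, connexin 32, at 0.07 (-0.04 to 0.17), and Ndrg1 and Litaf each at 0.10, with intervals of 0.01 to 0.19.

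Glial lists were near the median of all genes. Of 20 oligodendrocyte and myelin genes 12 were higher and the median was 0.01, with 20 intervals within 1.5-fold. Mbp was at 10700 to 12400 CPM in WT and 11400 to 12600 in HET (0.04, -0.04 to 0.12). Oligodendrocyte precursor genes had 7 of 9 higher, with Pdgfra at 0.05 (-0.06 to 0.16) and Cspg4 (NG2) at -0.12 (-0.24 to -0.00).

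Astrocyte genes had 7 of 17 higher and a median of -0.01, and the 17 intervals lay between -0.30 and 0.31. Gfap was at 1260, 1680 and 1820 CPM in WT and 1460, 1660 and 1980 in HET (0.09, -0.13 to 0.31). Aldh1l1, the folate enzyme used as an astrocyte marker, was at 62.5, 74.6 and 81.0 CPM in WT and 59.2, 65.7 and 71.5 in HET (-0.17, -0.30 to -0.04). Its difference was -0.05 within the libraries of high Xist, -0.31 within those of low Xist and -0.10 within prefix 40412. Reactive astrocyte genes had 11 of 20 higher, 3 higher and 2 lower members at an unadjusted p below 0.05 and a median of 0.01. Serpina3n, a protease inhibitor of reactive astrocytes, was at 0.09 (0.01 to 0.18) and 0.04 within the libraries of high Xist, and Psmb8, an immunoproteasome subunit, at -0.30 (-0.54 to -0.05).

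Homeostatic microglial genes had 13 of 20 higher, a median of 0.01 and 20 intervals within 1.5-fold. Cx3cr1, the fractalkine receptor, was at 42.4 to 49.6 CPM in WT and 41.2 to 51.1 in HET (0.00, -0.11 to 0.12). P2ry13, a purinergic receptor, was at 8.40, 8.66 and 9.43 CPM in WT and 6.78, 7.40 and 8.46 in HET (-0.23, -0.36 to -0.10, unadjusted p 0.00182), with a single HET library inside the WT range. P2ry12, its neighbour and relative, was at -0.05 (-0.24 to 0.14). Activated microglial genes had 16 of 18 higher, a median of 0.04 and 1 unadjusted p below 0.05, that of Csf1, a macrophage growth factor, at 0.11 (0.02 to 0.20). Trem2 was at 0.09 (-0.05 to 0.23) and Apoe at 0.03 (-0.03 to 0.10).

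Interferon, complement and antigen presentation genes were mostly lower, with 5 of 24 higher, 2 lower members at an unadjusted p below 0.05 and a median of -0.07. Oasl2 was at 5.67, 5.94 and 7.19 CPM in WT and 4.56, 5.49 and 5.79 in HET (-0.18, -0.35 to -0.02), and H2-K1, a class I antigen chain, at -0.16 (-0.31 to -0.01), with -0.02 for H2-K1 within prefix 40412. Ifit1 was at -0.01 (-0.32 to 0.30). The list's median was -0.02 in prefix 40412 alone.

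The lowest median of any list was that of fibroblast and meningeal genes, which mark the cells that ensheath the cord and its vessels. Of 14 tested, 1 was higher in HET, 5 were lower at an unadjusted p below 0.05 (2.46% of all genes were lower at that p), and the median log2 fold change was -0.19. No member was called. Mean deviations of the list ran from -0.21 to -0.07 in HET libraries and from -0.09 to 0.16 in WT libraries, so the groups overlapped. Summed levels were 347 to 434 CPM in HET and 367 to 501 in WT. The median was -0.21 in the 7 libraries of high Xist, -0.20 with Xist as a covariate and -0.15 with the prefix as a covariate. On the TPM scale it was -0.05, where the median of all genes was 0.043.

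Dcn, decorin, was at 10.1, 10.9 and 12.1 CPM in WT and 8.72, 9.48 and 10.8 in HET (-0.19, -0.33 to -0.05). Mgp, matrix Gla protein, was at 3.87, 4.44 and 6.86 CPM in WT and 3.23, 3.35 and 4.40 in HET (-0.43, -0.72 to -0.15), with -0.20 within the libraries of high Xist and -0.19 within prefix 40412. Both genes had overlapping groups. The collagen chains differed from each other: Col1a1 was at -0.02 (-0.18 to 0.14), Col1a2 at -0.10 (-0.22 to 0.02), and Col3a1, picked after its values were seen, at -0.20 (-0.39 to -0.00). Igf2, a meningeal growth factor also picked so, was at -0.32 (-0.63 to -0.02) over 12 libraries and at -0.07 within the libraries of high Xist.

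Pericyte and smooth muscle genes had 3 of 14 higher, 2 lower members at an unadjusted p below 0.05 and a median of -0.04. Carmn, a long noncoding RNA of smooth muscle, was at 0.195, 0.431 and 0.576 CPM in WT and 0.0404, 0.106 and 0.353 in HET. At this abundance its interval was wide (-1.41, -2.24 to -0.58), and the difference was -0.45 on the log2(CPM + 0.5) scale within the libraries of high Xist. The other was Cspg4, also in the precursor list. Pdgfrb, the pericyte receptor, was at -0.05 (-0.24 to 0.14) and Rgs5 at 0.01 (-0.15 to 0.17). Of 17 endothelial genes 9 were higher, 2 were lower at an unadjusted p below 0.05, and 17 intervals lay within 1.5-fold. Vwf, von Willebrand factor, was at 22.2, 26.5 and 29.3 CPM in WT and 18.4, 20.9 and 26.7 in HET (-0.29, -0.47 to -0.12). Its difference was -0.13 within the libraries of high Xist, -0.48 within those of low Xist and -0.21 within prefix 40412. Abcb1a, an efflux transporter of the blood-brain barrier, was at -0.11 (-0.21 to -0.02). Pecam1 was at -0.07 (-0.15 to 0.01) and Cldn5 at 0.06 (-0.20 to 0.32).

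**Figure D5:**
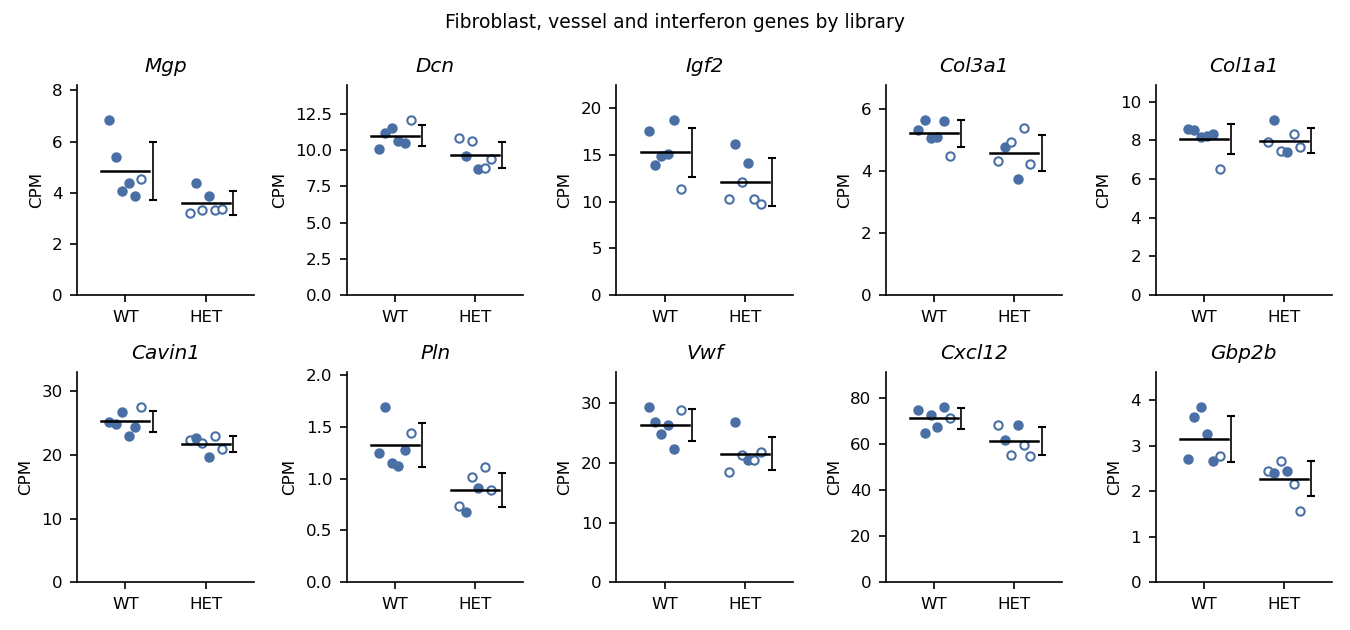
CPM of 10 genes in each WT and HET library, of fibroblasts, smooth muscle and vessels and, for Gbp2b, of the interferon response. Filled points have Xist above 100 CPM and open points have it below. Line and bar are mean ± SD. Pln points do not overlap (0.681 to 1.11 in HET, 1.12 to 1.69 in WT), those of Col1a1 do (7.38 to 9.08 and 6.55 to 8.60).

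Other cells that a dissected cord can carry gave few values. Schwann cell genes of the roots had 2 of 10 higher, a median of -0.09 and 8 intervals within 1.5-fold, and Prx was at -0.20 (-0.66 to 0.27). Sensory ganglion, skeletal muscle and blood lists held 6, 5 and 6 tested genes with medians of 0.07, -0.08 and 0.12. Hba-a1, a haemoglobin chain, was at 55.8 to 117 CPM in WT and 66.7 to 138 in HET. Ependymal genes had 3 of 11 higher and a median of -0.06, which was 0.04 without HET 4. Foxj1, the ciliogenesis factor, was at 0.08 (-0.03 to 0.18).

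Genes of energy and protein production lay close to WT, with a wide spread of mitochondrial transcripts between libraries. The 13 mitochondrially encoded respiratory chain genes were all lower in HET with a median of -0.08, and mt-Nd1 was at 3350 to 5440 CPM in WT and 3170 to 4970 in HET (-0.10, -0.39 to 0.18). They share 1 genome and vary together, and the median was -0.01 without HET 2, -0.00 without WT 5 and -0.16 without HET 3. The 25 nuclear respiratory chain genes had intervals between -0.11 and 0.18 and a median of -0.01. Of 35 cytosolic ribosomal protein genes 25 were higher, the median was 0.03, and the 35 intervals lay between -0.28 and 0.26.

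Among genes of at least 1 CPM, all 6 HET values lay above all 6 WT values for 5 genes (0.034% of 14714) and below them for 18 (0.122%). Among so many genes some separate in this way when nothing differs, so separation is given as a description only. The 5 were Bfsp2, a lens filament protein (8.51 to 10.6 CPM in WT, 10.8 to 15 in HET; 0.32), Actl10 (0.37), Axin1, a scaffold of the Wnt destruction complex (19.9 to 22.1 and 22.3 to 24 CPM; 0.14), Stxbp2 (0.12) and Kirrel (0.12). Among the 18 were Pln, phospholamban of smooth and cardiac muscle (-0.58, -0.92 to -0.25), Gbp2b, an interferon-induced GTPase (-0.46, -0.74 to -0.19), Mylk4 (-0.39), Eno4 (-0.30), Gk5 (-0.23), Mxra8 (-0.23) and Abi3bp (-0.21). Within the libraries of high Xist, Bfsp2 was at 0.22, Axin1 at 0.14, Pln at -0.47 and Gbp2b at -0.34.

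After Ppp1r3c and Atf4, the genes of smallest unadjusted p on the higher side included Fam43a (0.23, 0.10 to 0.35), Gem, a small GTPase (0.34, 0.14 to 0.53), Siah2, a ubiquitin ligase (0.22, 0.09 to 0.34), and Nfil3, a bZIP repressor (0.29, 0.12 to 0.46). On the lower side the smallest was that of Cavin1, a coat protein of caveolae, at 22.9, 25 and 27.5 CPM in WT and 19.7, 22.1 and 23 in HET (-0.22, -0.32 to -0.11, unadjusted p 0.000693). A single HET value lay inside the WT range, and the difference was -0.22 within the libraries of high Xist and -0.20 within prefix 40412. Below it came Olfr287 (-0.24, -0.36 to -0.12), Gpx3, a secreted glutathione peroxidase (-0.26, -0.41 to -0.11), Ephx1, an epoxide hydrolase (-0.25, -0.40 to -0.10), and Cxcl12, a chemokine of meninges and vessels (-0.21, -0.34 to -0.09). For Olfr287 the difference within the libraries of high Xist was -0.10, for Gpx3 -0.11, for Ephx1 -0.17 and for Cxcl12 -0.13. No adjusted p of any of these genes was below 0.05 in edgeR.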

How the data were processed

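RNA-seq of mouse spinal cord was used from 12 of 22 libraries. The authors deposited, per the file headers, an expected count and a TPM value (scaled by transcript length and library total) for each gene. The submitters' processing notes name RSEM 1.2.12 and Bowtie2 2.2.0, without their roles. For build, annotation and use of strand: not given in the sources used here. Expected counts assign reads shared by similar genes in part, so values of near-identical genes are uncertain. Of 38924 gene IDs, 37607 matched a symbol and position in GENCODE M21 (GRCm38).

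Expected counts were rounded to whole numbers, filtered with filterByExpr, scaled by TMM and fitted with edgeR 4.0.16 (R 4.3.3; quasi-likelihood, robust) on the 6 HET and 6 WT libraries without covariates. Benjamini-Hochberg adjustment covered all 16589 genes, and a gene was called below 0.05. All p-values and intervals without another name come from this fit. Differences within libraries of high or low Xist (above or below 100 CPM) or of 1 prefix are differences of mean log2(CPM + 0.5), with no test. The low set holds WT 6 as its only WT library. Alternatives were DESeq2 1.42.0, limma 3.58.1 (voom on counts, trend on log2(TPM + 1) without TMM), and other scaling and filters. Further ones were prefix or Xist as covariates, the 22-library fit, subsets of libraries and leaving out each library.

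The text names Yars, the genes called in HOM, the first 2 members of each list and its members of smallest p, the 12 genes of smallest p in each direction among those of at least 1 CPM, and up to 8 genes in each direction whose groups do not overlap; some of these are given only in counts. The 41 gene lists and the members were chosen with earlier results of these data known, and 3 list genes had no ID in the files. Some named genes are not reported here.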

Additional observations from a re-analysis of the deposited data

Results flagged for a closer look

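In 348 groups of 6 values (the named genes in WT and in HET), 32 held 1 library that lay apart from the other 5, with a gap to its nearest neighbour above Dixon's 95% critical value as a share of the group's range. Chance flags about 1 in 20 groups, and genes of 1 library are not independent.

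WT 6, the WT library with low Xist, was the one apart for 13 of them. It was the highest WT library for Herpud1 (82.6 CPM), Hspa1a (25.2), Hspa1b (28.5), Fkbp5 (39.5), Tsc22d3 (249), Cdkn1a (39.5), Grp (6.51), Penk (125) and Trim17 (5.85). It was the lowest for Eif2s3x (175), Pmp22 (61.1), Col1a1 (6.55) and Col1a2 (29.5).

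Among the other WT libraries, Adm2 (0.0305 CPM), Jun (51.1) and Chat (29.3) were highest in WT 1, Farsa (25.6) and Pdgfra (53.2) in WT 2, Aldh18a1 (28.3) in WT 4, and Clock (100) and Aqp4 (740) in WT 5, while Kirrel (15.8) was lowest in WT 3. The Adm2 value is 1 count.

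Among HET libraries, HET 3 was highest for Nefm (2310 CPM) and lowest for Cars2 (6.69), Sox10 (106) and Pdgfrb (19.8). HET 4 was highest for Nnt (19.7) and lowest for Rsph1 (2.28). Litaf was highest in HET 1 (65.7), S100a9, a neutrophil transcript, in HET 2 (1.87) and Serpina3n in HET 5 (49.5), and Oasl2 was lowest in HET 6 (4.56).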

How the results depend on the processing

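Every one of 24 alternatives called 0 genes, with a smallest adjusted p of 0.0609 (DESeq2, Ppp1r3c). The number of genes at an unadjusted p below 0.05 was 1104 with no filter on low counts, 360 in prefix 40412 alone, and 511 (without HET 6) to 1108 (without WT 4) when 1 library was left out. It was 524 with the prefix as a covariate, 753 with Xist level as a covariate, 639 with at least 1 CPM in 6 libraries, 721 with relative log expression factors, 578 with all 22 libraries, 966 on the TPM scale, and, in alternatives added after seeing the data, 513 without HET 3 and HET 6 and 549 in the 7 libraries of high Xist. Of 170 named genes, 44 changed sign in some alternative, 1 of them with an unadjusted p below 0.05: Fbln5, a matrix protein, went from -0.23 to 0.01 in the 7 libraries of high Xist. Of 42 lists, 24 medians changed sign somewhere, and signs of genes and medians were taken before rounding, so values near 0 count. Cause was not tested. No paired analysis was possible because the libraries carry no replicate numbers that groups share. Genes under 1 CPM, with a median interval margin of 0.5 (log2), are where depth limits most.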

Other observations

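Circadian clock genes had 7 of 17 higher in HET, a median log2 fold change of -0.01 and 17 intervals within 1.5-fold. Per3 was at 46.7, 53.9 and 58.3 CPM in WT (lowest, median, highest) and 41.1, 49.0 and 52.5 in HET (-0.14, 95% interval -0.27 to -0.01), Arntl at 0.07 (-0.10 to 0.25), and Per1, which is also induced by stimuli, at 36.9 to 53.2 CPM and 41.4 to 70.2 (0.28, -0.02 to 0.57). Targets of p53 had 7 of 20 higher and a median of -0.01, with Cdkn1a at 20.1 to 39.5 CPM in WT and 17.8 to 29.6 in HET (-0.03, -0.41 to 0.36) and Mdm2 at 0.05 (-0.04 to 0.14).

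Ribosome stall rescue genes, which act where a ribosome waits for a charged tRNA, had 7 of 13 higher, a median of 0.02 and 13 intervals between -0.22 and 0.21. Gtpbp2, a rescue GTPase, was at 44.9, 48.0 and 49.4 CPM in WT and 46.8, 48.1 and 50.9 in HET (0.03, -0.04 to 0.11), Gtpbp1 at -0.01 (-0.10 to 0.09) and Zfp598, a sensor of collided ribosomes, at 0.06 (-0.02 to 0.13). Glutathione and NRF2 target genes had 7 of 18 higher and 2 lower at an unadjusted p below 0.05 (edgeR): Gstm1 (-0.11, -0.21 to -0.01) and Gsta4 (-0.09, -0.18 to -0.01). Gclc, which begins glutathione synthesis, was at -0.01 (-0.09 to 0.06).

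Of 576 tested X-linked genes, 7 (1.22%) were higher and 14 (2.43%) lower in HET at an unadjusted p below 0.05, beside 1.92% and 2.46% of all genes. Xist was above 100 CPM in 5 of 6 WT and 2 of 6 HET libraries.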
